A study of Salmo salar with 16 samples.

Results

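The insulin-like growth factor (IGF) system of Atlantic salmon was profiled across mid-brain, pituitary gland, ovary and liver. Members were taken from the annotation of assembly ICSASG_v2 as every gene whose description or exon product names insulin-like growth factor, insulin receptor or IGF binding protein, plus the gene with symbol igfbp-2b1. The rule found 62 of the 81574 genes in the count table. They comprise 4 ligand genes, 3 genes for the acid labile subunit, 23 genes for IGF binding proteins (IGFBPs), 2 relatives of these proteins, 11 genes annotated as IGF-I receptors, 5 insulin receptor genes, 10 genes for insulin receptor substrates and 4 genes for proteins that bind IGF-II mRNA. The 16 libraries are 4 replicates each of mid-brain (called brain here), pituitary gland, ovary and liver. All came from sexually immature 3-year-old female salmon from an Australian breeding program, with no treatment named in the labels, and the study set out to catalogue baseline expression in each tissue. The study's methods name 4 animals, which means that tissues share fish, but no source ties a replicate number to a fish. Each tissue was sampled at 1 stage of life only and as whole tissue.

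IGF-I and IGF-II are small peptides that signal through the IGF-I receptor, a tyrosine kinase related to the insulin receptor, and through docking proteins called insulin receptor substrates. In vertebrates the liver makes much of the IGF-I in blood under control of growth hormone from the pituitary gland. Most of it circulates bound to IGFBPs, and in mammals a complex of IGF, IGFBP-3 or IGFBP-5 and the acid labile subunit keeps it in the circulation. Salmonids kept many genes in duplicate after a genome duplication in their ancestor. Several IGFBPs have paralogs, which are labelled with letters and numbers (igfbp-2b1, igfbp-2b2).

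Total counts ranged from 20.6 M to 51.9 M per library, with brain replicate 2 the deepest and the next at 30.6 M. Expression is given as CPM, which is counts scaled to a common library total (count per M) and corrected for composition by the TMM method of edgeR, and FPKM, the same value per kilobase of merged exons, is used wherever levels of different genes are compared. The composition factors were 0.494 to 0.538 in the liver and 1.24 to 1.48 in brain and ovary, so liver CPM values stand higher against the other tissues than plain totals would give. Summed levels of liver plasma protein genes (18 genes) were 244074 to 278364 CPM in the liver and 37.5 to 231 CPM in the brain. Pituitary hormone genes (15 genes) summed to 368102 to 453600.0 CPM in the pituitary gland and to no more than 707 CPM elsewhere. The 31 ovary markers summed to 4536 to 5509 CPM in the ovary but to 20896 to 24120 CPM in the liver, so that list did not single out the ovary. Hemoglobin genes (27 genes), markers of blood, summed to 266 to 1010 CPM in liver libraries and 47.1 to 592 CPM in pituitary libraries. Their sums were 49.9 to 301 CPM in the brain and 9.42 to 17.0 CPM in the ovary. The 51 brain markers summed to 30576, 20162, 17082 and 3671 CPM in brain replicates 1 to 4, with replicate 4 far below the others. The 16 genes for collagen I, decorin and lumican, markers of connective tissue, summed to 107, 90.7, 1566 and 1405 CPM in the same libraries, and to 400.3 to 471 CPM in the pituitary gland. Brain replicates 3 and 4 thus stand apart in the connective tissue markers, and the calls against the brain that change without them are given both ways. Leaving them out was chosen after seeing the data, and several members are highest among brain libraries in these replicates. Fold changes, p-values and calls without them therefore describe the remaining libraries and are no independent test. In bulk tissue, fewer cells of a type and less RNA per cell cannot be told apart.

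Of the 62 members, 57 lie on chromosomes and 5 on unplaced scaffolds. The 5 scaffold members, 4 of them annotated as IGF-I receptors, had no count in any library, as had all 29313 genes on such scaffolds. Detection was set at 1 CPM or more in 2 or more libraries of a tissue. By this limit the liver had 37 detected members, the ovary 26, the brain 38 and the pituitary gland 32. With 3 or more libraries required, the numbers were 35, 26, 31 and 29, so the order of brain and liver depends on the limit. The share of all genes detected is not given here, so these numbers describe the members only. The number detected in all tissues was 17, and 14 were below the limit in each. The filter on low counts left 51 members and 37043 genes for the tests. Calls between a pair of tissues used the thresholds of the study, 0.001 as the highest adjusted p with 2 as the smallest log2 fold change, and a gene was tissue-specific where it was called above each of the other 3 tissues. A member that passed the filter only through the tissue where it is high had little room not to differ, so the counts of calls describe the 51 members and are not offered as evidence about the system.

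Under these thresholds, 11 of the 51 members tested were liver-specific (21.6%), against 5.80% of all genes tested. The liver-specific members were both abundant acid labile subunit genes, both abundant IGF-I genes, the IGF-II gene and 6 IGFBP genes. Another 3 members were ovary-specific, namely 1 substrate and both IGF-II mRNA-binding protein 3 genes, against 11.1% of all genes. No member was brain-specific (6.11% of all genes) or pituitary-specific (2.16%) in edgeR's quasi-likelihood test. At an unadjusted p under 0.05, 1 member was higher in the brain than in each other tissue (16.0% of all genes) and 6 were higher in the pituitary gland (7.96%). DESeq2's Wald test gave 1 brain-specific member, an IGFBP-5 gene (LOC106575566), and 0 pituitary-specific members. The heat map of levels per library shows these groups side by side.

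**Figure D1:**
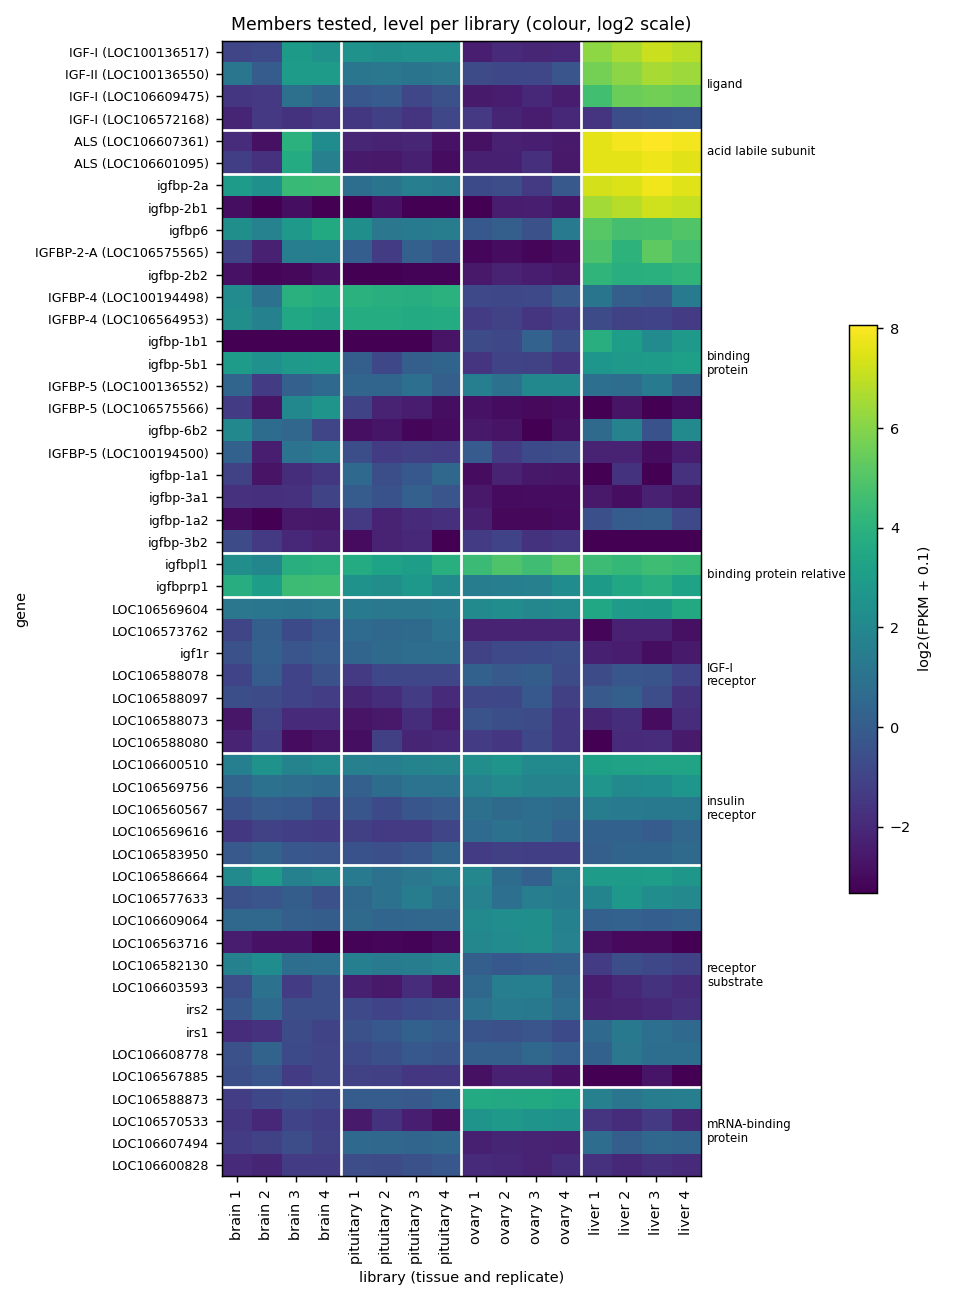
Level of each of the 51 members tested (rows, grouped by role) in each of the 16 libraries (columns), with colour giving log2(FPKM + 0.1). The liver columns are brightest for ligands, acid labile subunit and several binding proteins, with tissue means up to 233 FPKM, and brain replicates 3 and 4 differ from replicates 1 and 2 in the same rows.

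In the comparisons of pairs of tissues, the liver exceeded the brain for 16 members (background 10.8%), the pituitary gland for 13 (10.9%) and the ovary for 15 (18.5%). In the opposite direction, the brain exceeded the liver for 10 members (22.1%), the pituitary gland for 7 (17.3%) and the ovary for 7 (22.3%). The median log2 fold change of the members, liver minus pituitary gland, was 0.99, against -0.17 over all genes tested. The same medians were 0.65 against -0.22 for liver minus brain, and 0.65 against -0.38 for liver minus ovary. With plain library totals in place of the composition factors, the calls of members between liver and brain changed from 16 above and 10 below to 8 above and 13 below. Of all 37043 genes tested, 1990 were then above in the liver and 14148 below, against 4004 and 8187 with composition factors. Member calls between liver and ovary changed from 15 above and 7 below to 13 above and 14 below, with 3610 of all genes above and 15546 below (6864 and 8268 before). Liver-specific members went from 11 to 7, and liver-specific genes from 2149 to 1270. The median over all genes tested, liver minus brain, itself moved from -0.22 to -1.61 under that scaling, so directions against the liver are relative to it.

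Among the other tissues, the brain exceeded the ovary for 17 members (27.6% of all genes) and was exceeded by it for 5 (19.0%). The pituitary gland exceeded the ovary for 10 (22.3%) and was exceeded by it for 8 (18.9%). The brain exceeded the pituitary gland for 5 (10.7%), and the pituitary gland exceeded the brain for 0 (4.91%) in edgeR's quasi-likelihood test, with 11 members at an unadjusted p under 0.05 (27.6% of all genes) and 0 by DESeq2's Wald test. Without brain replicates 3 and 4 the brain exceeded the ovary for 10 members and the pituitary gland for 3, and the pituitary gland exceeded the brain for 4, namely LOC100136517, LOC100194498, LOC106600828 and irs1. The shares of all genes given above are from the fit on all libraries, and those of the reduced fit are not given here. Whether the members moved more than all genes cannot be read from these counts. Over all 6 pairs, 37 members were called at least once (72.5%), against 71.1% of all genes, a share near the background. The p-values measure the spread between these libraries.

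Transcripts of IGF-I in the liver and pituitary gland came mainly from the gene LOC100136517 (chromosome 17, 44648372 to 44669064), which gave 68.4 to 73.6% of the FPKM of the IGF-I genes in liver libraries and 80.4 to 88.8% in pituitary libraries. Its share was 47.2 to 79.1% in brain libraries and 21.1 to 42.8% in ovary libraries. Its values in the liver were 208, 297, 423 and 354 CPM in replicates 1 to 4. The pituitary gland held 16.4, 14.8, 15.9 and 15.7 CPM and the ovary 0.277, 0.475, 0.398 and 0.417 CPM. The lowest liver library held 208 CPM and the highest ovary library 0.475 CPM, while the pituitary libraries lay within a narrow band between them. The brain held 1.24, 1.42, 21.96 and 16.5 CPM, with replicates 3 and 4 far above the others. The log2 fold change was 4.35 (SE 0.72, adjusted p = 6.09e-05) for liver minus pituitary gland and 9.66 (SE 0.94, adjusted p = 9.95e-08) for liver minus ovary in edgeR's quasi-likelihood test after Benjamini-Hochberg adjustment. It was 4.97 (SE 0.74, adjusted p = 1.84e-05) for liver minus brain in that test, and 7.73 (SE 0.32, adjusted p = 1.20e-11) without brain replicates 3 and 4. The SE of liver minus pituitary gland was 0.195 without those libraries, because all tissues share 1 spread per gene. The pituitary level, 4.89% of the liver mean, exceeded the ovary by 5.31 (SE 0.81, adjusted p = 1.76e-05) on the log2 scale. Pituitary minus brain was 0.62 (SE 0.64, adjusted p = 0.433) with all libraries and 3.45 (SE 0.27, adjusted p = 3.89e-08) without brain replicates 3 and 4 in edgeR's quasi-likelihood test, so the call between these tissues depends on them.

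A further gene for IGF-I, LOC106609475 (chromosome 7, 42548645 to 42568049), was also highest in the liver, at lower levels. The liver held 53.1, 97.6, 108 and 97.2 CPM and the brain 0.532, 0.566, 3.72 and 2.56 CPM. The pituitary gland held 1.62, 1.85, 0.940 and 1.32 CPM, and the ovary 0.162, 0.190, 0.319 and 0.172 CPM. All liver libraries were above all others, and brain replicates 3 and 4 were again the highest outside the liver. The log2 fold change of liver minus each of brain, pituitary gland and ovary was 5.62, 5.96 and 8.71, with adjusted p of 1.60e-07, 1.34e-07 and 4.43e-09 in edgeR's quasi-likelihood test after Benjamini-Hochberg adjustment. Without brain replicates 3 and 4, liver minus brain was 7.16 (SE 0.38, adjusted p = 1.77e-10) in that test. In FPKM, the liver means of the pair were 108 ± 30.7 for LOC100136517 and 41.7 ± 11.4 for LOC106609475 (SD, n = 4). LOC106609475 gave 26.1 to 31.2% of the IGF-I total in liver and 7.31 to 14.03% in the pituitary libraries.

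Another gene with the product name insulin-like growth factor I, LOC106572168 on chromosome 15, was near the limit of detection everywhere. It held 0.551, 1.29, 1.45 and 1.67 CPM in liver libraries and 0.589, 0.782, 0.537 and 0.990 CPM in pituitary libraries. The brain held 0.295, 0.622, 0.502 and 0.609 CPM and the ovary 0.623, 0.285, 0.186 and 0.344 CPM. Its ranges overlapped between liver and every other tissue, and it was called in no pair. Without ovary replicate 1 or liver replicate 1, liver minus ovary passed the thresholds at 2.15 and 2.003, and in the fit on that pair alone at 2.05. Its liver mean was 0.542 FPKM.

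IGF-II, a growth factor expressed in many fish tissues, was annotated as the single gene LOC100136550 (chromosome 10, 56526167 to 56531394). The liver held 43.3, 57.3, 80.4 and 71.3 CPM, the brain 1.77, 0.746, 6.55 and 6.36 CPM and the pituitary gland 1.80, 1.94, 1.68 and 1.87 CPM. The ovary was lowest, at 0.439, 0.380, 0.372 and 0.589 CPM. No range overlapped the liver range, whereas the pituitary range lay within that of the brain. The log2 fold change of liver minus pituitary gland was 5.11 (SE 0.54, adjusted p = 5.37e-07), and of liver minus brain 4.05 (SE 0.51, adjusted p = 3.00e-06) in edgeR's quasi-likelihood test after Benjamini-Hochberg adjustment. Liver minus brain was 5.56 (SE 0.36, adjusted p = 1.63e-09) without brain replicates 3 and 4 in the same test. Its liver mean of 74.9 ± 19.3 FPKM (SD, n = 4) stood between those of the IGF-I genes. Both abundant IGF-I genes and IGF-II kept their liver-specific call under plain library totals and when any single library was left out, but LOC100136517 lost its call over the brain in the fit on brain and liver alone (log2 fold change 4.97, adjusted p = 0.00183 in edgeR's quasi-likelihood test). The plot of ligands by tissue shows the gap between liver and the rest.

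**Figure D2:**
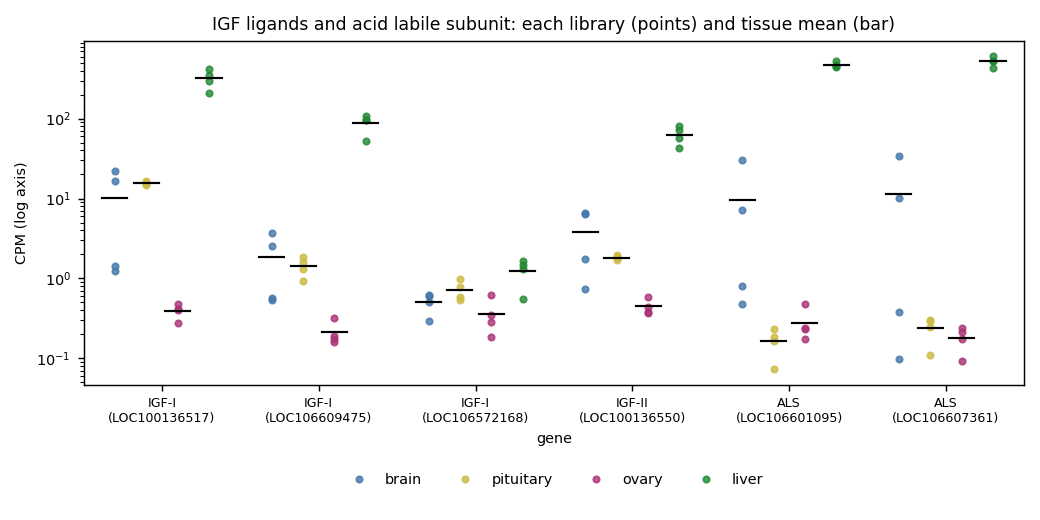
CPM on a log axis of the 4 ligand genes and the acid labile subunit (ALS) genes LOC106601095 and LOC106607361, with a point for each of 4 libraries per tissue and a bar at the tissue mean. The liver points of all but LOC106572168 lie above every other point of that gene, and the brain points of LOC100136517, LOC106609475 and ALS split into replicates 3 and 4 above and replicates 1 and 2 below.

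The acid labile subunit, a large liver glycoprotein in mammals, was far more abundant in the liver than elsewhere. LOC106601095 (chromosome 3, 63234808 to 63237515) held 465, 453, 522 and 444 CPM in the liver libraries. LOC106607361 (chromosome 6, 34990402 to 34992979) held 434, 524, 604 and 523 CPM there. Their liver means of 199.9 ± 14.9 and 233 ± 31.0 FPKM (SD, n = 4) were the highest of the members, with igfbp-2a next at 186 FPKM, differences that were not tested. The place of igfbp-2a rests on a partial model of 478 exon bases. In CPM its liver mean was 88.8, below 321 for the IGF-I gene LOC100136517. In the ovary LOC106601095 held 0.231, 0.237, 0.478 and 0.172 CPM, and in the pituitary gland 0.184, 0.165, 0.235 and 0.0734 CPM. These values are 0.0156 to 0.101% of its liver mean, and 11 plasma protein genes with at least 1000 CPM in the liver were at 0.0143 to 0.0688% of theirs in the pituitary libraries and 0.0366 to 0.108% of theirs in ovary, and these ranges overlap. The corresponding log2 fold changes were 10.71 (SE 1.23, adjusted p = 7.18e-07) and 11.44 (SE 1.30, adjusted p = 1.16e-06) for LOC106601095 in edgeR's quasi-likelihood test after Benjamini-Hochberg adjustment. For LOC106607361 they were 11.49 and 11.06. All tissues share 1 spread per gene, so the SEs of LOC106601095 also carry the spread among brain libraries. Its SEs were 0.27 and 0.29 without brain replicates 3 and 4, at log2 fold changes of 10.69 and 11.36. A further gene with the same product, LOC106612733 on chromosome 9, had no more than 14 counts in the sum of any tissue.

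In the brain both subunit genes differed by library. LOC106601095 had 27, 35, 1028 and 236 counts in brain replicates 1 to 4, or 0.797, 0.483, 30.3 and 7.18 CPM. LOC106607361 had 13, 7, 1169 and 334 counts, or 0.384, 0.0967, 34.5 and 10.2 CPM. Replicate 3 was highest, replicate 4 was next and replicates 1 and 2 were below 1 CPM for both genes. The liver minus brain fold change of LOC106607361 was 5.54 (SE 1.12, adjusted p = 3.68e-04) on the log2 scale with all libraries and 11.16 (SE 0.44, adjusted p = 7.03e-12) without brain replicates 3 and 4 in edgeR's quasi-likelihood test after Benjamini-Hochberg adjustment. Fitted on brain and liver libraries alone, it missed the threshold (adjusted p = 0.0102), as it did without brain replicate 4 (adjusted p = 0.00139). The brain excess of LOC106601095 over the pituitary gland, 5.83 (SE 1.14, adjusted p = 4.86e-04), became 1.94 (SE 0.39, adjusted p = 5.28e-04) without those libraries and was then not called.

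The difference among brain libraries extended to other members, with the abundant IGF-I genes, IGF-II, igfbp-2a, LOC106575565, igfbp6, the IGFBP-4 genes, the IGFBP-5 genes LOC100194500 and LOC106575566, igfbprp1 and igfbpl1 higher in replicates 3 and 4 than in replicates 1 and 2. LOC106575566, an IGFBP-5 gene, held 1.03, 0.166, 12.7 and 19.3 CPM in brain replicates 1 to 4 and at most 1.36 CPM in any library of another tissue. It was called above ovary and liver with all libraries (log2 fold change 6.19 and 6.89, adjusted p = 2.29e-04 and 6.00e-04 in edgeR's quasi-likelihood test). Without replicates 3 and 4 the adjusted p was 0.0174 and 0.0211. Other members were lower in both replicates 3 and 4 than in replicates 1 and 2, so the split ran in both directions. Among these, igfbp-6b2 held 11.1, 4.35, 3.57 and 1.19 CPM. The substrate genes LOC106582130, LOC106586664, LOC106609064, LOC106608778, LOC106567885 and irs2 were lower too, as were the insulin receptor gene LOC106583950 and igfbp-3b2. Neither list of members is complete. The receptor gene igf1r showed no such split, at 4.61, 7.80, 5.22 and 6.54 CPM. Of the 16 connective tissue markers, 12 were higher in both brain replicates 3 and 4 than in replicates 1 and 2, with sums of 107, 90.7, 1566 and 1405 CPM in replicates 1 to 4. Liver plasma protein genes summed to 231, 37.5, 163 and 104 CPM, highest in replicate 1 and lowest in replicate 2. In brain replicate 3 the 11 abundant plasma protein genes were at 0.0444 to 0.0755% of their liver means, and the acid labile subunit genes at 6.44 and 6.62% of theirs. The part of the connective tissue markers in these values was not tested.

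Without brain replicates 3 and 4, 14 calls of the members were lost and 10 gained over the 6 pairs in edgeR's quasi-likelihood test after Benjamini-Hochberg adjustment. The share of all genes whose calls changed is not given here, so these counts describe the members only. Of the calls over the ovary, the brain lost 8, those of LOC100136517 (log2 fold change from 4.69 to 1.90), LOC100136550 (3.09 to 1.55), LOC106609475 (3.09 to 1.52), LOC106601095 (5.10 to 1.26), LOC106607361 (5.95 to 0.30), LOC106575566 (6.19 to 2.49), igfbp6 (2.48 to 1.90) and igfbprp1 (2.33 to 1.83). Over the liver, it lost those of LOC100194498 (2.41 to 1.10), LOC100194500 (3.99 to 2.85) and LOC106575566. Over the pituitary gland, it lost those of LOC106601095 and igfbp-2a (2.59 to 1.57). The remaining loss was the liver call of LOC106569604 over the brain. The pituitary gland gained 4 calls over the brain, among them LOC106600828 (1.48 to 2.03) and irs1 (1.35 to 2.05). It gained 2 over the ovary, those of LOC100136550 (2.02 to 2.07) and igfbp-2a (2.07 to 2.12), where the fold change hardly moved. Neither tissue of that pair lost a library, but all tissues share 1 spread per gene. The gene igfbpl1 gained calls over the brain in the ovary and in the liver (1.16 to 2.15). The brain gained LOC106582130 over the ovary (1.60 to 2.21) and igfbp-3b2 over the liver, where adjusted p moved from 0.00255 to 8.87e-04. The liver libraries had no count of igfbp-3b2, and 3 counts per library would there be 0.264 CPM on average. Brain replicates 1 and 2 held 0.768 and 0.401 CPM, not far above that, so the size of the difference is not known.

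**Figure D3:**
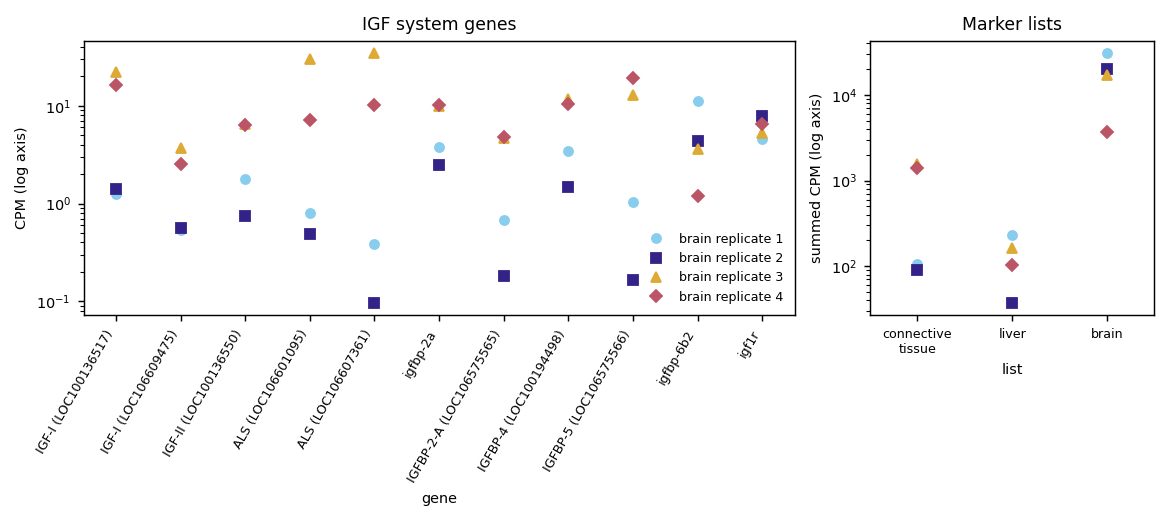
Left, CPM on a log axis of 11 members in each of the 4 brain libraries. Right, summed CPM on a log axis of the marker lists for connective tissue, liver and brain in the same libraries, where brain replicates 3 and 4 hold 1566 and 1405 CPM of connective tissue transcripts, against 107 and 90.7 CPM in replicates 1 and 2.

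IGFBPs carry IGFs in blood and tissue and can limit or extend their action. Of 23 IGFBP genes, 17 were tested and 6 of those were liver-specific. The IGFBP-2 family stood out in level. igfbp-2a (chromosome 16, 75389650 to 75393090, a partial gene model) held 77.2, 84.1, 108 and 86.3 CPM in liver libraries, 3.75, 2.46, 9.97 and 10.2 CPM in brain libraries and 0.773, 0.947, 1.38 and 1.25 CPM in pituitary libraries. The ovary held 0.231, 0.261, 0.133 and 0.393 CPM. Liver ranges did not overlap the others, and brain was second. Its liver mean was 186 ± 27.4 FPKM (SD, n = 4), and liver minus brain was 3.76 (SE 0.39, adjusted p = 3.79e-07) on the log2 scale with all libraries and 4.70 (SE 0.28, adjusted p = 6.82e-10) without brain replicates 3 and 4 in edgeR's quasi-likelihood test after Benjamini-Hochberg adjustment.

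LOC106575565, annotated as IGFBP-2-A (chromosome 17, 18780745 to 18785408), held 49.5, 27.1, 62.1 and 42.5 CPM in liver libraries and 0.679, 0.180, 4.69 and 4.81 CPM in brain libraries. The pituitary gland held 1.58, 0.494, 1.68 and 1.14 CPM and the ovary 0.0231, 0.0475, 0.0265 and 0.0491 CPM. The ovary values amount to 6 counts in all. The liver minus brain log2 fold change was 4.15 (SE 0.72, adjusted p = 8.84e-05) in edgeR's quasi-likelihood test, and the call was lost in the fit on brain and liver alone (adjusted p = 0.00313) and under plain library totals (adjusted p = 0.00136). Without brain replicates 3 and 4 it was 6.72 (SE 0.57, adjusted p = 3.74e-08) in the same test.

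igfbp-2b2 (chromosome 21, 20761448 to 20875138) and igfbp-2b1 (chromosome 25, 42443978 to 42457671) were still more restricted. igfbp-2b2 held 76.9, 62.4, 67.1 and 78.3 CPM in the liver libraries and no more than 0.522 CPM in any other. igfbp-2b1, whose product name in the annotation is IGF binding protein 3, held 77.3, 98.5, 128 and 115 CPM in liver libraries, and its summed counts elsewhere were 8 for ovary, 2 for brain and 1 for pituitary gland. The log2 fold change of liver minus ovary was 7.52 (SE 0.30, adjusted p = 4.59e-12) for igfbp-2b2 and 10.95 (SE 0.43, adjusted p = 3.58e-12) for igfbp-2b1 in edgeR's quasi-likelihood test after Benjamini-Hochberg adjustment. Each kept its liver-specific call in all 24 alternative settings, as did igfbp-2a, LOC106609475 and LOC100136550. The study had placed igfbp-2b1 on its own list of liver genes from these samples, so its direction is not independent evidence. In FPKM the liver means were 123 for igfbp-2b1, 27.3 for LOC106575565 and 16.1 for igfbp-2b2. In CPM they were 105, 45.3 and 71.2, with 88.8 for igfbp-2a. The order in FPKM rests on annotated exon lengths, 850, 1656 and 4424 bases for these genes and 478 for igfbp-2a.

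The other liver-specific IGFBP genes were igfbp-1b1 and igfbp6. IGFBP-1 is a secreted inhibitor that in fish rises with fasting and stress. igfbp-1b1 (chromosome 14, 28584797 to 28590894, partial) held 10.2, 5.86, 3.26 and 5.09 CPM in liver libraries and 0.369, 0.332, 0.796 and 0.417 CPM in ovary libraries, with 1 count in the pituitary libraries and 0 in the brain. With 3 counts per library as the floor, the liver was at least 78.7-fold higher than the brain. Liver minus ovary was 3.66 (SE 0.50, adjusted p = 1.56e-05) on the log2 scale in edgeR's quasi-likelihood test and was lost under plain library totals (adjusted p = 0.00124). The paralogs igfbp-1a1, highest in the pituitary gland at 0.824 CPM, and igfbp-1a2, highest in the liver at 2.07 CPM, were low, and igfbp-1b2 had 2 counts in all libraries.

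igfbp6 (chromosome 15, 88177580 to 88180753) encodes a form that in mammals prefers IGF-II. It held 20.6, 15.8, 15.9 and 18.7 CPM in liver libraries, 3.04, 1.96, 4.25 and 7.12 CPM in brain libraries and 2.98, 1.32, 1.51 and 1.58 CPM in pituitary libraries. The ovary held 0.462, 0.593, 0.372 and 1.47 CPM. The liver libraries were above all others, but the margin over the brain was small, with a log2 fold change of 2.12 (SE 0.43, adjusted p = 3.79e-04) in edgeR's quasi-likelihood test. That call was lost when brain replicate 1, 2 or 3 or liver replicate 1 or 4 was left out, where adjusted p ran from 8.59e-04 to 0.00172, and under plain library totals (log2 fold change 0.74). Without brain replicate 2 it failed on the fold change alone, at 1.88.

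IGFBP-4 showed another distribution, high in the pituitary gland and brain. LOC100194498 (chromosome 2, 46152938 to 46165542) held 12.3, 10.99, 10.9 and 12.3 CPM in pituitary libraries and 3.48, 1.48, 11.8 and 10.3 CPM in brain libraries. The ovary held 0.369, 0.356, 0.372 and 0.638 CPM and the liver 1.65, 0.776, 0.634 and 2.003 CPM. LOC106564953 (chromosome 12, 22983858 to 23005841) held 73.7, 73.8, 67.4 and 71.1 CPM in pituitary libraries and 27.0, 17.3, 61.3 and 51.0 CPM in brain libraries. In the ovary it held 1.68, 2.06, 1.27 and 1.74 CPM and in the liver 2.85, 1.98, 2.17 and 1.67 CPM. Pituitary libraries were tight and above every ovary and liver library, whereas brain libraries spread widely. Pituitary gland minus ovary was 4.73 (SE 0.58, adjusted p = 1.66e-06) for LOC100194498 and 5.40 (SE 0.35, adjusted p = 1.02e-09) for LOC106564953 on the log2 scale in edgeR's quasi-likelihood test after Benjamini-Hochberg adjustment. Pituitary gland minus brain was 0.78 (SE 0.49, adjusted p = 0.187) for LOC100194498, and 2.16 (SE 0.42, adjusted p = 4.38e-04) without brain replicates 3 and 4, which made it pituitary-specific. In FPKM the pair was nearly equal in the pituitary gland, with LOC100194498 at 14.7 ± 1.01 and LOC106564953 at 12.98 ± 0.547 (SD, n = 4), which are levels and were not compared by a test. Their pituitary means were 11.6 and 71.5 CPM, and their merged exons span 794 and 5511 bases. The near equality in FPKM therefore rests on the annotated lengths.

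IGFBP genes occur in the genome as neighbours, and in 8 places an IGFBP-2 gene lay next to an IGFBP-5 gene or an IGFBP-1 gene next to an IGFBP-3 gene, with no other gene between. The IGFBP-2 and IGFBP-5 neighbours were 1629 bases apart on chromosome 16, 490 on chromosome 17 and 27462 on chromosome 25, and on chromosome 21 igfbp-5b1 lay within igfbp-2b2 on the other strand. Each IGFBP-2 gene of these pairs was liver-specific, the igfbp-2b1 gene included, and no IGFBP-5 gene was. In the liver the IGFBP-2 genes had means of 186, 27.3, 123 and 16.1 FPKM, an order that depends on annotated exon lengths. Their neighbours LOC100194500, LOC106575566, LOC100136552 and igfbp-5b1 had 0.0853, 0.0193, 1.74 and 7.33 FPKM. igfbp-5b1 was similar between brain and liver, at 4.36 to 6.36 CPM in brain libraries and 5.05 to 6.93 CPM in liver libraries, with both above the pituitary gland (0.371 to 0.954 CPM) and the ovary (0.185 to 0.332 CPM). LOC100136552 had its highest mean in the ovary, at 1.52 to 3.21 CPM, and was called in no pair. The 4 IGFBP-3 paralogs beside IGFBP-1 genes were low, with the highest mean, for igfbp-3a1 in the pituitary gland, at 2.103 CPM. igfbp-3a1 was called above the ovary there, with a log2 fold change of 4.30 (SE 0.43, adjusted p = 1.41e-07) in edgeR's quasi-likelihood test.

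**Figure D4:**
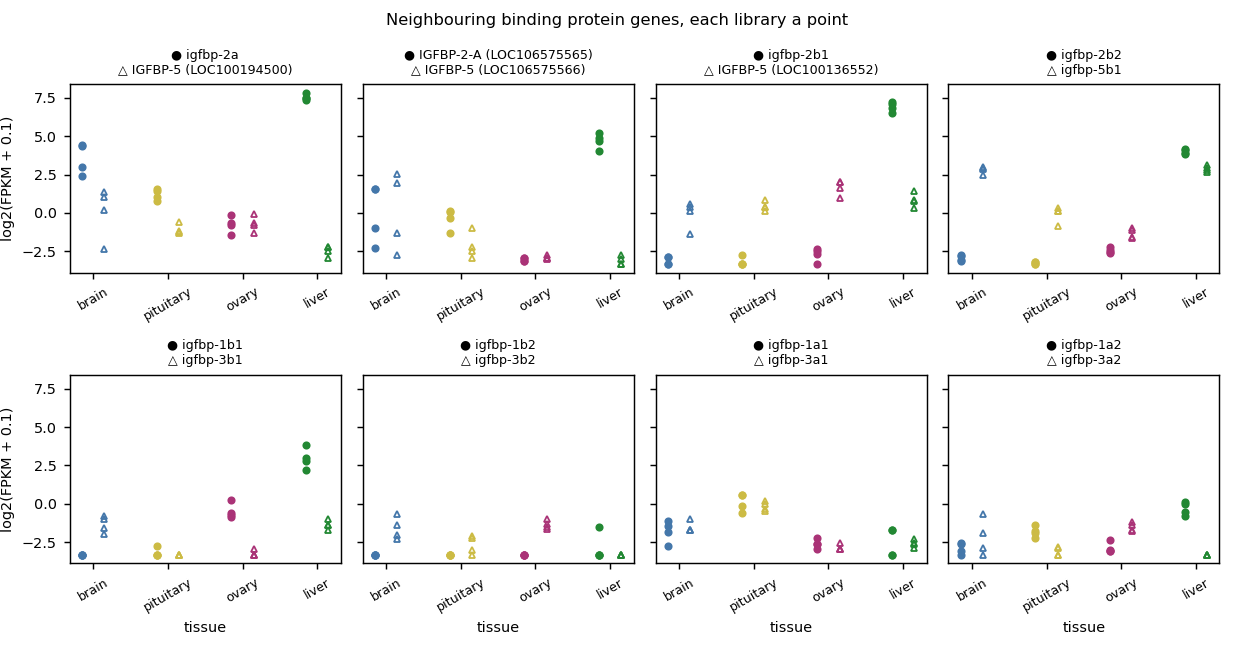
log2(FPKM + 0.1) of 8 pairs of adjacent IGFBP genes in each library, by tissue, with filled circles for the first gene and open triangles for the second. The upper row holds the IGFBP-2 and IGFBP-5 pairs, in which the circles are highest in the liver (means of 16.1 to 186 FPKM), and the lower row the IGFBP-1 and IGFBP-3 pairs.

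Among IGFBP-6 genes, igfbp-6b2 was detected in brain and liver with a wide spread, at 4.13, 9.14, 1.81 and 11.9 CPM in liver libraries, and at no more than 0.208 CPM in ovary or pituitary gland. Liver minus pituitary gland was 6.12 (SE 0.90, adjusted p = 1.89e-05) on the log2 scale in edgeR's quasi-likelihood test. igfbp-6a2 and LOC106583289 were too low to be tested.

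The relatives of the binding proteins, which were detected in all 4 tissues, were not tissue-specific. igfbpl1 held 54.4, 76.3, 59.3 and 82.7 CPM in ovary libraries, 56.1, 47.9, 57.8 and 52.2 CPM in liver libraries and 32.8, 24.4, 21.2 and 35.1 CPM in pituitary libraries. The brain held 12.3, 9.32, 35.4 and 39.0 CPM, and brain and pituitary ranges overlapped. It was called in no pair, with ovary minus brain at 1.51 (SE 0.36, adjusted p = 0.00114) on the log2 scale in edgeR's quasi-likelihood test, and at 2.53 (SE 0.24, adjusted p = 8.19e-08) without brain replicates 3 and 4, past both thresholds. igfbprp1 (partial) held 10.6, 6.42, 17.6 and 18.0 CPM in brain libraries, 5.78, 8.96, 11.1 and 7.68 CPM in liver libraries and 4.42, 3.87, 5.23 and 3.37 CPM in pituitary libraries. The ovary held 2.15, 2.25, 2.39 and 3.66 CPM. Brain minus ovary was 2.33 (SE 0.32, adjusted p = 4.92e-06) in that test, and 1.83 (SE 0.29, adjusted p = 3.05e-05) without brain replicates 3 and 4, below the fold threshold.

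Of the 11 genes annotated as IGF-I receptors, 7 were tested and none was tissue-specific. The models igf1r (chromosome 10, 80940680 to 81063164, 21 exons) and LOC106573762 (chromosome 16, 29579436 to 29740445, 21 exons) had the same order of tissues. igf1r held 9.13, 10.7, 11.8 and 12.4 CPM in pituitary libraries, 4.61, 7.80, 5.22 and 6.54 CPM in brain libraries and 2.72, 3.54, 3.72 and 4.25 CPM in ovary libraries. The liver held 0.734, 0.603, 0.272 and 0.584 CPM. Pituitary libraries were all above brain libraries, brain libraries above ovary libraries and ovary libraries above liver libraries, and neighbours in this order were called only between ovary and liver. LOC106573762 held 8.65, 7.91, 8.46 and 11.2 CPM in pituitary libraries and 2.42, 5.68, 2.80 and 4.17 CPM in brain libraries. The ovary held 0.646, 0.641, 0.664 and 0.638 CPM and the liver 0.0918, 0.603, 0.634 and 0.250 CPM, so that the highest liver library lay just below the lowest ovary library. Pituitary gland minus liver was 4.32 (SE 0.29, adjusted p = 2.53e-09) for igf1r and 4.50 (SE 0.42, adjusted p = 1.15e-07) for LOC106573762 on the log2 scale in edgeR's quasi-likelihood test after Benjamini-Hochberg adjustment. Pituitary gland minus brain was 0.86 (SE 0.23, adjusted p = 0.00481) and 1.26 (SE 0.33, adjusted p = 0.00442), which pass neither threshold. The liver, the tissue with the highest IGF-I ligand level, had the lowest level of both receptor genes, at 0.0726 and 0.0681 FPKM.

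LOC106569604 (chromosome 14, 41041708 to 41043328), also annotated as IGF-I receptor, has 1 exon of 1621 bases and lies 50203 bases from the insulin receptor gene LOC106569616, with no gene between and on the same strand. It held 18.2, 12.4, 11.8 and 19.4 CPM in liver libraries and 6.90, 7.52, 6.08 and 6.63 CPM in ovary libraries. The pituitary gland held 4.20, 3.71, 3.52 and 4.15 CPM and the brain 3.60, 3.41, 3.25 and 3.65 CPM. The liver was its highest tissue, where igf1r was lowest, and brain and pituitary ranges overlapped. It gave 77.3 to 92.4% of the FPKM of all IGF-I receptor genes in the liver libraries. That share depends on the annotated lengths, 1621 bases here and 7549 for igf1r. In CPM, which does not use length, the liver means were 15.5 for LOC106569604 and 0.548 for igf1r. Whether this model is an IGF-I receptor gene was not tested. Liver minus brain of LOC106569604 was 2.15 (SE 0.18, adjusted p = 3.04e-08) on the log2 scale in edgeR's quasi-likelihood test after Benjamini-Hochberg adjustment, and 1.98 (SE 0.24, adjusted p = 1.89e-06) without brain replicates 3 and 4, where the call was lost. Liver minus pituitary gland, 1.99, was not called, but was without pituitary replicate 1 or 4 or liver replicate 2 or 3, at 2.01 to 2.09. It was also called with DESeq2 size factors (2.03), by DESeq2's Wald test (2.03) and in the fit on that pair alone (2.02). A filter of 1 CPM in at least 4 libraries gave a call too (2.01). Under plain library totals liver minus brain was 0.76, and liver minus ovary, 1.19 with composition factors, turned to -0.28.

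The IGF-I receptor genes on chromosome 26 were low. LOC106588073 held 1.85, 1.61, 1.51 and 0.736 CPM in ovary libraries, 0.177, 1.06, 0.472 and 0.456 CPM in brain libraries and 0.367, 0.517, 0.0906 and 0.501 CPM in liver libraries. The pituitary gland held 0.147, 0.206, 0.503 and 0.257 CPM. LOC106588078 (partial) ranged over 1.06 to 2.26 CPM in ovary libraries, 0.826 to 1.92 CPM in brain libraries, 0.834 to 1.55 CPM in liver libraries and 0.589 to 0.947 CPM in pituitary libraries. LOC106588080 (partial) and LOC106588097 had tissue means of no more than 0.333 and 0.731 CPM. None of these genes was called in any pair, though ovary minus pituitary gland of LOC106588073 passed the thresholds without brain replicate 1, brain replicate 2 or liver replicate 3 (log2 fold change 2.33, 2.33 and 2.34). It also passed them by DESeq2's Wald test (2.19), in the fit on that pair alone (2.16) and under plain library totals (2.84). Under plain library totals its ovary minus liver passed as well (3.39). Their models are short fragments of 1049 to 2842 bases, and reads shared with other receptor genes were not counted.

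The insulin receptor genes were all detected in every tissue, and 4 of 5 had their highest mean in the liver. Under plain library totals the liver was no longer above every other tissue for any of these 4. LOC106600510 (chromosome 3, 41026911 to 41122639) was the most abundant, with 57.7, 60.5, 64.4 and 66.0 CPM in liver libraries and 31.8, 38.6, 28.0 and 27.0 CPM in ovary libraries. The brain held 18.9, 37.4, 21.5 and 27.8 CPM and the pituitary gland 19.8, 18.5, 21.6 and 22.9 CPM. The liver libraries were above all others, and the brain range overlapped those of pituitary gland and ovary. Liver minus pituitary gland was 1.59 (SE 0.18, adjusted p = 1.43e-06) on the log2 scale in edgeR's quasi-likelihood test after Benjamini-Hochberg adjustment, below the fold threshold. LOC106569756 held 17.2, 11.98, 12.8 and 17.5 CPM in liver libraries and 9.14, 11.3, 9.21 and 9.45 CPM in ovary libraries, 3.43, 5.28, 4.46 and 3.86 CPM in brain libraries and 2.87, 4.28, 5.34 and 5.47 CPM in pituitary libraries. Brain and pituitary ranges overlapped, and the liver and ovary libraries were above them.

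LOC106560567 held 10.3, 9.48, 9.15 and 9.10 CPM in liver libraries and 6.79, 5.55, 6.32 and 5.57 CPM in ovary libraries. The brain held 2.45, 3.36, 3.10 and 1.92 CPM and the pituitary gland 2.84, 1.89, 2.85 and 3.41 CPM. LOC106569616 held 5.40, 6.72, 5.65 and 4.05 CPM in ovary libraries and 3.86, 3.88, 3.26 and 4.51 CPM in liver libraries, and no more than 1.504 CPM in brain or pituitary libraries. In the fit on all tissues it was the only insulin receptor gene with a call, with ovary minus brain at 2.23 (SE 0.23, adjusted p = 1.89e-07) and ovary minus pituitary gland at 2.17 (SE 0.23, adjusted p = 3.23e-07) on the log2 scale in edgeR's quasi-likelihood test after Benjamini-Hochberg adjustment. Ovary minus brain was 1.96 in the fit on that pair alone, below the fold threshold. LOC106583950 held 8.17, 9.48, 9.42 and 11.7 CPM in liver libraries and 6.56, 9.24, 6.17 and 5.63 CPM in brain libraries. The pituitary gland held 5.08, 4.86, 5.87 and 9.57 CPM, and the ovary was lowest with 2.47, 2.87, 2.71 and 2.75 CPM. Liver minus ovary, 1.84 (SE 0.23, adjusted p = 2.46e-06) in edgeR's quasi-likelihood test, passed both thresholds with DESeq2 size factors (2.03), by DESeq2's Wald test (2.03) and in the fit on that pair alone (2.12). Ovary libraries were thus above brain and pituitary libraries for LOC106569756, LOC106560567 and LOC106569616. For LOC106600510 the ovary range overlapped that of the brain, and for LOC106583950 the ovary was lowest. In FPKM, LOC106600510 gave 45.0 to 52.4% of the insulin receptor total in liver samples and 38.7 to 43.6% in ovary samples. Under plain library totals liver minus ovary turned negative for LOC106600510 (-0.49), LOC106560567 (-0.83) and LOC106569756 (-0.87). Liver minus brain turned negative for LOC106600510 (-0.17) and LOC106583950 (-0.92), as did liver minus pituitary gland for LOC106583950 (-0.34).

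Insulin receptor substrates dock signalling proteins to the activated receptors, and 10 genes for types 1 and 2 were tested. LOC106563716, annotated as type 2-B-like (chromosome 11, 81738388 to 81742708), was ovary-specific. It held 15.9, 18.9, 20.8 and 13.5 CPM in ovary libraries and no more than 0.384 CPM in any other library. Ovary minus brain was 6.40 (SE 0.56, adjusted p = 2.80e-08) and ovary minus liver 7.55 (SE 0.68, adjusted p = 4.14e-08) on the log2 scale in edgeR's quasi-likelihood test after Benjamini-Hochberg adjustment. It kept this call in all 24 alternative settings. It gave 26.2 to 34.9% of the FPKM of all type 2 genes in the ovary libraries, against at most 0.952% elsewhere.

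Among the other type 2 genes, LOC106586664 was the most abundant in liver, with a mean of 45.2 ± 4.36 CPM (SD, n = 4), and in brain, with 28.7 ± 12.6 CPM. It gave 79.7 to 83.9% of type 2 FPKM in the liver libraries. LOC106582130 led in the pituitary gland, with 40.4 to 42.6% of type 2 FPKM, and LOC106609064 and LOC106563716 gave similar shares in the ovary, with 27.1 to 35.1% from LOC106609064. The gene named irs2 was highest in the ovary at 7.17 to 10.5 CPM and lowest in the liver at 0.459 to 0.834 CPM, with ovary minus liver at 3.84 (SE 0.34, adjusted p = 3.59e-08) on the log2 scale in edgeR's quasi-likelihood test.

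Among the type 1 genes, LOC106577633 held the largest share of type 1 FPKM in liver (56.2 to 58.1%) and pituitary gland (46.2 to 55.3%), with a liver mean of 26.8 ± 7.71 CPM (SD, n = 4). The gene named irs1 was highest in the liver at 6.51 to 11.2 CPM. LOC106603593 was highest in the ovary at 8.42 to 18.95 CPM and shares 104 exon bases with a gene on the opposite strand, from which its reads may not be told apart because the strand setting of the counting is not given in the sources used here. Without brain replicate 2, LOC106603593 was ovary-specific. LOC106608778 was called in no pair, and LOC106567885 was highest in the brain at 1.42 to 3.47 CPM.

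The IGF-II mRNA-binding proteins take their name from a target transcript, and in vertebrates they regulate the location and translation of many mRNAs in germ cells and embryos. Both genes for type 3 were ovary-specific. LOC106588873 (chromosome 27, 28392614 to 28433113) held 75.5, 69.9, 73.4 and 63.0 CPM in ovary libraries, 18.3, 12.8, 16.3 and 17.2 CPM in liver libraries and 5.49, 5.35, 4.93 and 6.42 CPM in pituitary libraries. The brain held 1.92, 2.71, 3.45 and 2.83 CPM. Ovary, liver, pituitary gland and brain formed 4 separate ranges in that order. Ovary minus liver was 2.13 (SE 0.16, adjusted p = 5.06e-09) on the log2 scale in edgeR's quasi-likelihood test after Benjamini-Hochberg adjustment, close to the fold threshold. With DESeq2 size factors it was 1.94, with DESeq2's Wald test 1.94 and in the fit on ovary and liver alone 1.85, and the ovary-specific call was lost in each.

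LOC106570533 (chromosome 14, 80331058 to 80367065) held 16.8, 19.6, 16.7 and 16.1 CPM in ovary libraries. The brain held 0.709, 0.414, 1.12 and 0.943 CPM, the pituitary gland 0.221, 0.618, 0.268 and 0.110 CPM and the liver 0.643, 0.517, 0.815 and 0.334 CPM. The ovary alone was apart, with ovary minus liver at 4.90 (SE 0.43, adjusted p = 3.22e-08) on the log2 scale in edgeR's quasi-likelihood test. The ovary means were 11.6 ± 0.905 FPKM for LOC106588873 and 6.003 ± 0.550 FPKM for LOC106570533 (SD, n = 4). The genes for type 1 of this protein were called above the ovary in the pituitary gland, with LOC106607494 at 9.80 to 11.2 CPM in pituitary libraries, 8.10 to 12.9 CPM in liver libraries and 0.808 to 1.04 CPM in ovary libraries. Its pituitary gland minus ovary difference was 3.53 (SE 0.22, adjusted p = 5.20e-10) on the log2 scale in that test. Its means in pituitary gland and liver were alike, at 10.54 and 10.53 CPM. LOC106600828 was highest in the pituitary gland, at 4.20 to 6.09 CPM. The transcript of IGF-II itself was lowest in the ovary.

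**Figure D5:**
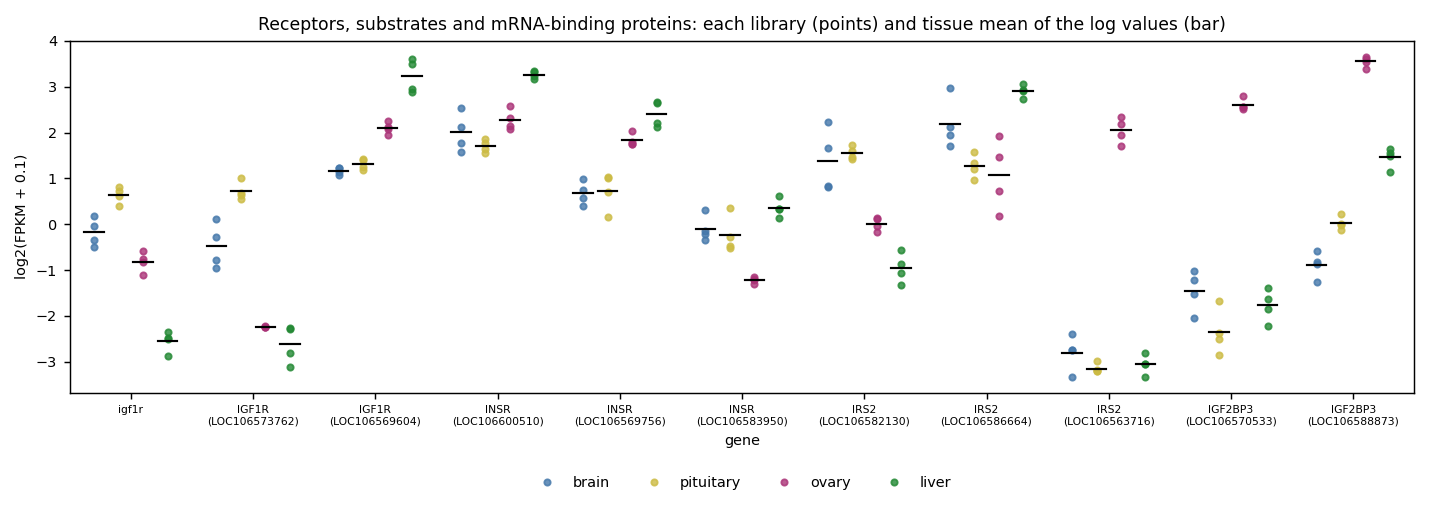
log2(FPKM + 0.1) of IGF-I receptor genes (igf1r, IGF1R), insulin receptor genes (INSR), type 2 substrates (IRS2) and IGF-II mRNA-binding protein 3 genes (IGF2BP3), with a point for each of 4 libraries per tissue and a bar at the mean of the log values. The genes igf1r and LOC106573762 are lowest in the liver (0.0726 and 0.0681 FPKM), and LOC106563716, LOC106570533 and LOC106588873 are highest in the ovary (4.09, 6.003 and 11.6 FPKM).

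Genes that act around the IGF system were taken as a list of 75 genes by product name, of which 69 were tested and 3 had no count. They comprise growth hormone receptors and STAT5, which drive IGF-I transcription, pappalysins, proteases that in mammals cleave IGFBP-4 and IGFBP-5, stanniocalcins, their inhibitors, and intracellular relays such as phosphatidylinositol 3-kinase (PI3K), AKT and FOXO. The number called liver-specific was 5 of the 69 (5.80% of all genes tested), ovary-specific 5 (11.1%), brain-specific 1 (6.11%) and pituitary-specific 1 (2.16%). As with the members, these counts describe the listed genes and are not offered as evidence. The liver-specific ones included the growth hormone receptor genes LOC100136463 (136, 131, 144 and 139 CPM in the liver replicates) and LOC106585200 (47.4, 64.6, 56.7 and 55.9 CPM). In the pituitary gland LOC100136463 had a mean of 7.86 ± 1.27 CPM and LOC106585200 a mean of 0.519 ± 0.182 CPM (SD, n = 4), whereas the remaining receptor gene, ghr1, was called in no pair, with means of 7.48 ± 8.37 CPM for liver and 13.9 ± 8.40 CPM for brain. The STAT5B genes LOC106607295 and sta5b were liver-specific at 42.8 ± 5.09 and 58.3 ± 3.47 CPM. A PI3K regulatory subunit gene, LOC106563018, had 254, 406, 739 and 577 CPM in the liver replicates, a wide spread, and 36.7 ± 3.45 CPM in the brain.

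The ovary-specific genes of this list were the stanniocalcin-2-like genes LOC106603872 (58.4 ± 6.53 CPM) and LOC106604295 (2.97 ± 1.33 CPM), the SOCS2-like gene LOC106576177 (121 ± 5.98 CPM), whose mammalian counterpart restrains growth hormone signalling, and the FOXO3-like genes LOC106611315 (38.6 ± 4.87 CPM) and LOC106583301 (15.4 ± 1.68 CPM; mean ± SD, n = 4). The brain-specific gene was a FOXO6-like gene, LOC106605103, at 2.34 ± 0.845 CPM. The pituitary-specific gene was LOC106612054, annotated as insulin-like, with 0.552, 0.741, 0.738 and 0.477 CPM in the pituitary libraries and no count elsewhere. It could pass the filter only through the pituitary libraries, so it had little room not to be called. In the liver libraries 3 counts would be 0.250 to 0.275 CPM, not far below its pituitary level, so the size of that difference is not known. The pappalysin-2-like gene LOC106569072 had 73.3, 94.3, 58.8 and 78.3 CPM in the pituitary libraries and 18.6 ± 3.17 CPM in the ovary (SD, n = 4). No AKT, SHC, GRB10 or GRB14 gene was specific to a tissue.

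By pair, with the share of the list and then that of all genes tested, the liver exceeded the brain for 10 of the 69 genes (14.5% and 10.8%) and the brain the liver for 13 (18.8% and 22.1%). The liver exceeded the ovary for 18 (26.1% and 18.5%) and the ovary the liver for 15 (21.7% and 22.3%). The liver exceeded the pituitary gland for 9 (13.04% and 10.9%) and was exceeded for 13 (18.8% and 17.3%). The brain exceeded the ovary for 20 (28.99% and 27.6%) and was exceeded for 12 (17.4% and 19.0%), and the pituitary gland exceeded the ovary for 19 (27.5% and 22.3%) and was exceeded for 14 (20.3% and 18.9%). The brain exceeded the pituitary gland for 5 (7.25% and 10.7%) and was exceeded for 7 (10.1% and 4.91%). The median log2 fold change of the list lay between -0.44 and 0.44 in all 6 pairs.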

How the data were processed

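The authors sequenced mRNA from TruSeq stranded libraries, aligned reads to ICSASG_v2 with TopHat2 and used HTSeq to count those with a unique position, and they deposited these counts without normalization. Reads that map to near-identical paralogs were not counted. The strand setting is not given in the sources used here. A centered log2 table that the authors deposited was not used, since it holds the log2 of the same counts plus 1, minus the mean of each gene, with neither depth nor length. Coordinates, product names and merged exon lengths came from the deposited annotation, where names were matched by row identifier. Of 61 distinct member identifiers, 52 were found in a RefSeq gene table of a later assembly, of which no coordinate was used.

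Counts were scaled with TMM factors, filtered with filterByExpr and fitted with glmQLFit as 1 negative binomial model with a mean per tissue (edgeR 4.0.16, R 4.3.3), and glmQLFTest compared the 6 pairs. Adjustment was Benjamini-Hochberg within each pair over all 37043 genes tested. Fold changes used a prior count of 0.125. Each standard error was obtained from the log2 fold change and its F statistic. The fit was run on simulated counts with known changes in the liver only, equal in number up and down, and the same spread for all genes. That run did not imitate the composition differences or the split among brain libraries, so it did not test how the fit handles them. A level of 3 counts per library, 0.0414 to 0.275 CPM, was the floor for a fold against a tissue without counts, and it covers counting error only.

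Libraries were grouped by their labels. Same-numbered libraries of pituitary gland and liver had deviations from their group means correlated at 0.125 to 0.226 in 4 of 4 cases. Those of other tissues were at -0.017 to 0.126, over 0.1 in 5 of 20 cases. The main fit paired no libraries in any comparison, so its p-values and standard errors are unpaired although tissues share fish. The replicate number entered only as a block in an alternative fit. The members, lists and tests were chosen with earlier results of these data known. Some genes of the list around the IGF system are counted but not reported here by group. Values in every library are given for ligands, receptors, tissue-specific members and other members reaching a mean of 10 FPKM in a tissue, 31 in all, a few as ranges, and further members were named after their values were seen. Alternatives were DESeq2 1.42.0 size factors and Wald test, plain library totals, 2 other filters, fits on each pair alone, the replicate number as a block and leaving out each library. Leaving out brain replicates 3 and 4 together was chosen after seeing the data. The other versions were limma 3.58.1, Python 3.11.15, numpy 2.4.6, pandas 2.3.3 and matplotlib 3.10.9.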

Additional observations from a re-analysis of the deposited data

Results flagged for a closer look

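For each named member with counts, the highest and lowest value in each group of 4 libraries was compared with the rest, over 123 groups. In 8 of them 1 library lay far from the others, and chance alone flags about 1 group in 20. For igfbprp1, ovary replicate 4 held 3.66 CPM, against 2.15 to 2.39 CPM in the other ovary libraries. For the insulin receptor gene LOC106569756, ovary replicate 2 held 11.3 CPM, against 9.14 to 9.45 CPM. For igfbp6, pituitary replicate 1 held 2.98 CPM, against 1.32 to 1.58 CPM. The others were below 1 CPM. For LOC100194498, ovary replicate 4 held 0.638 CPM, against 0.356 to 0.372 CPM. For LOC106563716, pituitary replicate 4 held 0.110 CPM, against 0.0336 to 0.0412 CPM. For LOC106588078, pituitary replicate 1 held 0.589 CPM, against 0.917 to 0.947 CPM. For igfbp-1b1 and igfbp-2b1, 1 pituitary library held 1 count each, at 0.0367 CPM in replicate 4 and 0.0412 CPM in replicate 2, and the others held 0.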

How the results depend on the processing

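For each of the 31 named members, the highest tissue minus each other tissue was followed, 93 log2 fold changes in all. Pairs between a member's other tissues were left out. Under 24 alternatives, 2155 values stayed on the same side of the thresholds and in the same direction. Another 21 lost and 25 gained a call, and 11 changed direction, all of these under plain library totals. Without brain replicates 3 and 4, this set holds only 2 of the 14 calls lost and 2 of the 10 gained over all pairs and members tested. The reversed values were LOC106600510 liver minus brain -0.17 and liver minus ovary -0.49, LOC106560567, LOC106569604 and LOC106569756 liver minus ovary -0.83, -0.28 and -0.87, LOC106572168 liver minus brain -0.11 and liver minus pituitary gland -0.17, LOC106583950 liver minus brain -0.92 and liver minus pituitary gland -0.34, and LOC106588097 liver minus brain -0.91 and liver minus ovary -1.16. That scaling gave 1270 liver-specific genes (2149 with composition factors), 7 liver-specific members (11), 1 brain-specific member, igfbprp1 (0), and 8 members called between brain and pituitary gland (5). The first tissue's share of calls moved from 67.2 to 87.7% for brain against liver, 61.4 to 79.1% for pituitary gland against liver, 54.6 to 81.2% for ovary against liver, 54.1 to 41.3% for pituitary gland against ovary and 68.6 to 80.0% for brain against pituitary gland. The median over all genes, first minus second tissue, moved from 0.22 to 1.61, 0.17 to 1.11, 0.38 to 1.82, -0.04 to -0.57 and 0.05 to 0.50 in these pairs, and for brain minus ovary from 0.20 to 0.42 with DESeq2 size factors. Fits on each pair alone gave 3864 genes (5800) and 2 members (5) called between brain and pituitary gland, 14 members (22) between brain and ovary, 17 (26) between brain and liver and 7 liver-specific members (11). Apart from brain against pituitary gland, the counts of all genes in these fits are not given here. Nor are those of the fits that leave out 1 library. Such counts describe the members only. Leaving out 1 library at a time gave 3 to 9 members called between brain and pituitary gland, with 9 without brain replicate 2, and 0 to 1 brain-specific members, with LOC106575566 called without brain replicate 2. DESeq2's Wald test also gave 1 brain-specific member and no adjusted p for LOC106601095 against some tissues. Without brain replicates 3 and 4, 1 member, LOC100194498, was pituitary-specific. Of 11 liver-specific members, 5 were called in all 24 alternatives.

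Over all pairs of tissues, 42 of 48 comparisons of a library with another tissue were closest at its own number, a pairing that the main fit left out. With the replicate number as a block over all libraries, the calls between pituitary gland and liver stayed at 13 members above in liver and 7 above in the pituitary gland. For the brain, the block gave 5294 genes (5800) and 4 members (5) called between brain and pituitary gland, 15 members (17) with brain above ovary and 8 (10) with brain above liver. Over all genes, it gave 9786 (10229) with brain above ovary and 7700 (8187) with brain above liver. The block gave 11 liver-specific and 3 ovary-specific members, and no count moved by over 1.5 times. Depth limits members below 0.275 CPM in the liver, whose floor is the highest.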
